A study of Mus musculus with 8 samples.

Results

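The late cornified envelope genes are a mouse gene family, with symbols starting in Lce, whose RNA was measured in whole skin of near naked hairless mutant pups against wild type pups, both aged 7 days. A member is a row of the deposited table whose RefSeq accession matches an Lce symbol and which was measured on 3 or 4 of the 4 arrays in each dye orientation. Of 21 Lce genes in the RefSeq gene table, 11 had a row and 9 had enough values: Lce1a1, Lce1a2, Lce1b, Lce1d, Lce1e, Lce1f, Lce1i, Lce1l and Lce3c. The table held 6587 named genes in all. The rows of Lce1g and Lce1h held no value on any array, and the other 10 genes, among them 5 of the 6 Lce3 genes, were not analysed here. Members were thus chosen by the presence of measured log ratios on enough arrays, while the size and sign of the ratios did not enter the choice. The family was nevertheless proposed with earlier results of these arrays known, so the tests below describe it and support nothing further.

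Total RNA of mutant and wild type skin was hybridized together on each of 8 spotted oligonucleotide arrays, with dyes swapped. The mutant RNA, called sample in the labels, carried Cy5 on arrays 2, 4, 6 and 7 and Cy3 on arrays 1, 3, 5 and 8. The labels name no strain, sex or allele of the mutant, and the control is labelled only as control. The design states 5 biological replicates from 1 litter and does not tie arrays to animals, so some of the 8 arrays share an animal and p-values over arrays are too small. Arrays held values for 41.3% to 88.3% of the rows, fewest on arrays 3, 2 and 1, and the spread of their values ran from an SD of 0.57 on array 5 to 1.59 on array 2.

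The cornified envelope is the layer of cross-linked protein that replaces the plasma membrane of keratinocytes as they become dead cells of the stratum corneum. Transglutaminases join loricrin, involucrin, the small proline-rich proteins and late cornified envelope proteins into this layer. Late cornified envelope proteins are small, rich in glycine, serine and cysteine, and enter the envelope late in its assembly. Their genes lie side by side in the epidermal differentiation complex together with Lor, Ivl, Flg, the Sprr genes and the S100 genes. In human skin the LCE1 group is transcribed in normal epidermis, whereas the LCE3 group is known for its induction after injury and in psoriasis.

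Values are log ratios of mutant over wild type, taken as log2, and a value of 1 then stands for 2 times as much RNA in the mutant. The sources used here state neither the base nor the direction of the ratio. The direction is a likely one, since the labels and the design name the mutant before the control, and under the opposite direction every sign below would turn. All arrays were taken to run the same way as deposited, with the swapped ones turned by the authors. The basis is the 232 replicate spots of Gapdh, whose values correlated below 0 over spots in all 16 pairs of arrays with opposite dyes (median r = -0.45) and above 0 in all 12 pairs with the same dyes (median r = 0.55). Over all probes the pairs with the same dyes had r of 0.08 to 0.66 and those with opposite dyes -0.52 to 0.31. Array 8 followed the dyes least. Its pairs with arrays 1, 3 and 5 were the lowest among those with the same dyes, at 0.19, 0.16 and 0.08. With arrays 2, 4, 6 and 7, of opposite dyes, it had r of -0.02, 0.31, 0.19 and 0.15. A table of Cy5 over Cy3 would need the arrays with the mutant in Cy3 to be turned, and ratios under that reading stand beside the others where the fit is given. Probe sequences were not used here, and the family members are close paralogs, so how far a spot read the RNA of its neighbours was not tested. Ratios hold no level, so the tissue label could not be set against marker levels. A change in the number of keratinocytes and a change in RNA per keratinocyte cannot be told apart in whole skin.

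All 8 Lce1 genes had fitted ratios above 0, as had 55.0% of all probes tested, and Lce3c had a ratio below 0. On the arrays with the mutant in Cy3 alone, Lce1a2, Lce1e, Lce1i and Lce1l lay below 0. Lce1e had the highest fitted ratio, at 1.05 ± 0.21 (SE, 8 arrays), a level in the mutant 2.07-fold that of the wild type. It was the 1 member of 9 past the threshold (limma, adjusted p = 0.0135), where 0.676% of all 11974 probes tested were higher and 4.21% passed in either direction. No member was lower past the threshold, against 3.53% of all probes. Over the 3779 named genes in place of probes, 0.662% were higher and 2.8% lower, with Lce1e again the 1 member past the threshold. The median ratio of the members was 0.56, against 0.05 over all probes. On each array the median of the family lay above that of all probes, apart from array 5, where it was -0.11 against -0.04. On arrays 3 and 8 it lay only slightly above, at 0.07 against 0.05 and at -0.10 against -0.11. It was 1.42, 1.21, 0.64 and 0.51 on arrays 2, 4, 6 and 7, and 0.38, 0.07, -0.11 and -0.10 on arrays 1, 3, 5 and 8. The family median was therefore higher on each array with the mutant in Cy5 than on any array with the mutant in Cy3.

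**Figure D1:**
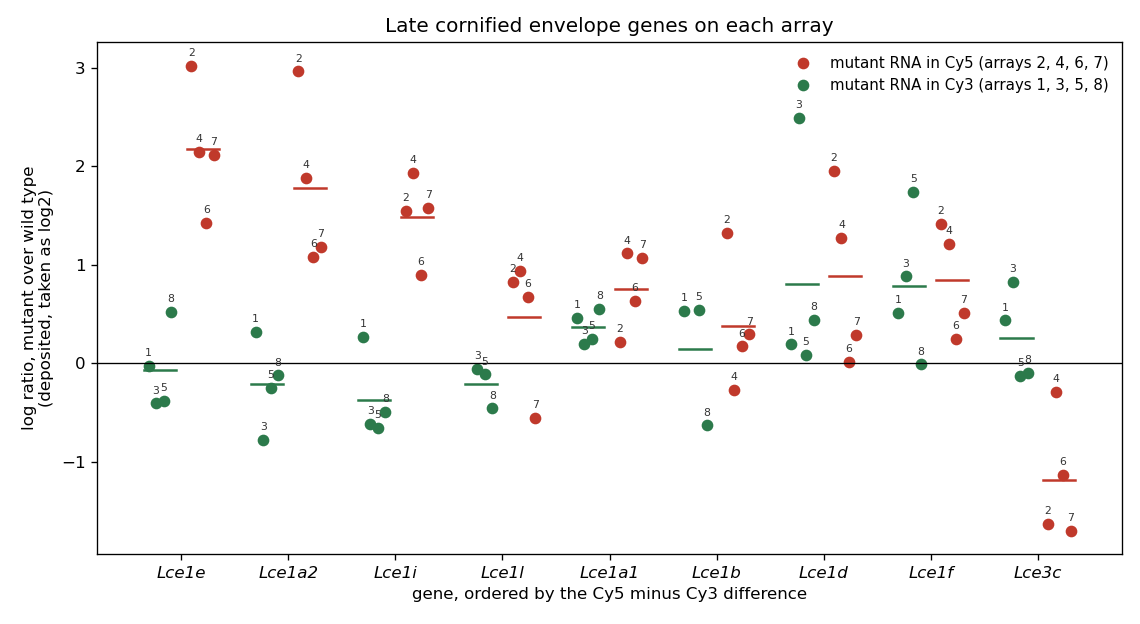
Deposited log ratio of each member (y axis, log2) on each array, with genes ordered along the x axis by their Cy5 minus Cy3 difference. Red points are the arrays with the mutant RNA in Cy5, green points those with it in Cy3, small numbers name the array and bars are means. The orientations separate in Lce1e, Lce1a2, Lce1i and Lce3c and overlap in the other 5 genes.

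Lce1e, Lce1a2 and Lce1i shared a pattern in which the orientations did not overlap. Lce1e had values of 3.02, 2.14, 1.42 and 2.12 on arrays 2, 4, 6 and 7, and of -0.02, -0.41, -0.38 and 0.53 on arrays 1, 3, 5 and 8. The mutant ratio was thus high on all 4 arrays with the mutant in Cy5 (mean 2.18 ± 0.66, SD, n = 4) and near 0 with it in Cy3 (-0.07 ± 0.44, SD, n = 4). Lce1a2 stood at 2.96, 1.88, 1.08 and 1.18 with the mutant in Cy5, and at 0.32, -0.78, -0.25 and -0.12 with it in Cy3. Lce1i stood at 1.55, 1.94, 0.90 and 1.58, and at 0.27, -0.62, -0.66 and -0.49 in the same order of arrays. Both were above 0 on all 4 arrays of the former kind and on 1 of 4 of the latter, array 1. Over all genes and unnamed probes with values on all 8 arrays, 22.5% had every Cy5 value above every Cy3 value.

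Lce1a1, Lce1d and Lce1f kept their sign in both orientations, apart from array 8 for Lce1f. Lce1a1 was above 0 on 8 of 8 arrays, with 0.21, 1.12, 0.64 and 1.07 on arrays 2, 4, 6 and 7 and 0.46, 0.20, 0.25 and 0.55 on arrays 1, 3, 5 and 8. Its spread was the narrowest of the 9 members, with an SD of 0.36 over arrays. Lce1d was also above 0 on 8 of 8 arrays, from 0.02 on array 6 to 2.49 on array 3, with 1.95 on array 2, 1.27 on array 4 and the other 4 between 0.09 and 0.44. Lce1d was thus high on 3 arrays and close to 0 on the other 5. Of probes with values on all 8 arrays, 1.88% were above 0 on every array. Lce1f reached 1.74 on array 5, 1.42 on array 2 and 1.21 on array 4, stood between 0.25 and 0.88 on arrays 1, 3, 6 and 7, and was -0.01 on array 8. The means of Lce1f in the 2 orientations were 0.85 ± 0.56 with the mutant in Cy5 and 0.78 ± 0.74 with it in Cy3 (SD, n = 4 each), closer to each other than the spread within either.

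Lce1b and Lce1l, each with values on 7 arrays, had no clear sign. Lce1b was above 0 on 5 arrays, up to 1.32 on array 2, and below 0 on array 4 (-0.27) and array 8 (-0.63), with no value on array 3. Lce1l was above 0 on arrays 2, 4 and 6 (0.82, 0.94 and 0.67) and below 0 on arrays 3, 5, 7 and 8, down to -0.56 on array 7 (in the fit 0.13, 95% interval -0.36 to 0.62). Its 3 values with the mutant in Cy3 lay between -0.46 and -0.06, within the range of the Cy5 values.

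Lce3c, the sole tested gene of the LCE3 group, ran the other way. Its values were -1.63, -0.29, -1.13 and -1.70 with the mutant in Cy5 and 0.44, 0.83, -0.13 and -0.10 on arrays 1, 3, 5 and 8. It was thus low on arrays 2, 6 and 7, and the orientations did not overlap, with the Cy5 values below the Cy3 values as in 9.51% of probes with values on all 8 arrays. Its fitted ratio of -0.46 had a 95% interval from -0.91 to -0.01 and did not pass over all probes (adjusted p = 0.231). The difference between Lce1l and Lce3c, its neighbour in the order of ratios, was 0.77 with an SD of 1.21 over 7 shared arrays.

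In the fit, which held the mean over both orientations and a term for their difference, the ratios below Lce1e were 0.84 ± 0.30 for Lce1d, 0.81 ± 0.22 for Lce1f and 0.78 ± 0.23 for Lce1a2 (SE). Lce1a1 and Lce1i followed at 0.56 ± 0.17 and 0.56 ± 0.19, then Lce1b at 0.26 ± 0.24 and Lce1l at 0.13 ± 0.22. None of these 7 passed, with adjusted p of 0.0621 for Lce1f, 0.0777 for Lce1a2, 0.0926 for Lce1a1, 0.117 for Lce1i, 0.131 for Lce1d, and above 0.5 for Lce1b and Lce1l. The intervals of Lce1d, Lce1f, Lce1a2, Lce1a1 and Lce1i did not reach 0 at 95%, for example 0.33 to 1.30 for Lce1f. No pair of neighbours in this order differed by more than the SD of their difference over shared arrays, so the order within the Lce1 group is not resolved. Lce1e kept its call whichever array was left out, with the ratio between 0.91 and 1.18 and adjusted p up to 0.0460 (without array 1). The call was lost without the dye term (adjusted p = 0.198), where the gap between orientations enters the spread, and with arrays 4 to 8 alone (0.112). On the arrays with the mutant in Cy3 alone the ratio of Lce1e was -0.07 (adjusted p = 0.895), and leaving out array 8 added Lce1f to the members past the threshold (0.0351).

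The difference between orientations, as the mean with the mutant in Cy5 minus the mean with it in Cy3, was 2.25 ± 0.41 for Lce1e, 1.98 ± 0.46 for Lce1a2 and 1.86 ± 0.38 for Lce1i (SE). These 3 of 9 members passed (limma, adjusted p = 0.0301, 0.0372 and 0.0351), where 4.45% of all probes had such a difference above 0. Over named genes the share was 1.64% and 2 of 9 members passed. Lce3c, at -1.45 ± 0.42, did not pass (adjusted p = 0.0564), and 0.894% of all probes had a difference below 0 past the threshold. Lce1f at 0.07 ± 0.45 and Lce1d at 0.08 ± 0.59 had the smallest differences, with 95% intervals from -0.90 to 1.04 and from -1.20 to 1.36. The direction of these small differences, and of that of Lce1b (0.23), changed with the scaling of the arrays. Each of the 3 calls was lost when any of arrays 1 to 7 was left out, with adjusted p up to 0.106 for Lce1a2 without array 3, and kept without array 8. The same held for all probes, of which 533 passed above 0 with all arrays, at most 1 without any of arrays 1 to 7, and 1461 without array 8. Read as Cy5 over Cy3, the ratio of mutant over wild type would be 1.12 ± 0.21 for Lce1e, 0.99 ± 0.23 for Lce1a2, 0.93 ± 0.19 for Lce1i and -0.72 ± 0.21 for Lce3c, with the first 3 past the threshold. Under that reading Lce1a1 would stand at 0.20, Lce1d at 0.04 and Lce1f at 0.03, all with intervals that include 0. The ratio under that reading is the difference between orientations divided by 2, with the same adjusted p, so it is no separate test. Its 3 calls were therefore also lost when any of arrays 1 to 7 was left out. Lce1e lay above 0 and past the threshold under both readings, while Lce1a1, Lce1d and Lce1f lay clear of 0 under the former reading alone. Both ratios of Lce1e rest on the same high values with the mutant in Cy5, so passing under both is no added support.

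**Figure D2:**
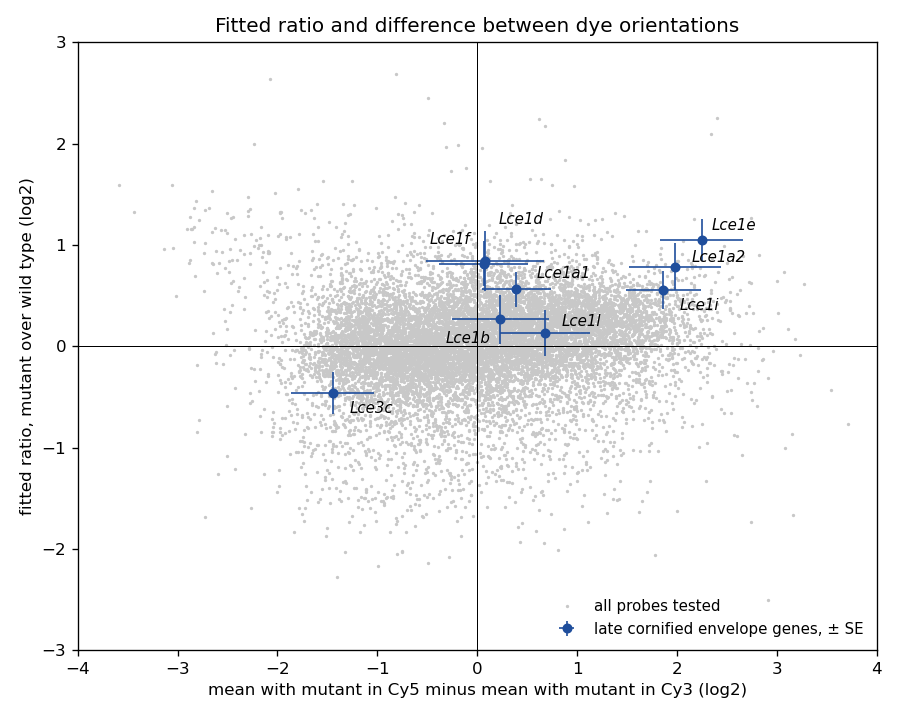
Fitted ratio of mutant over wild type (y axis, log2) against the Cy5 minus Cy3 difference (x axis, log2) for the 9 members (blue, ± SE) and all 11974 probes tested (grey, 3 of them outside the axes). Lce1e, Lce1a2 and Lce1i lie together at differences of 1.86 to 2.25, Lce1d and Lce1f near a difference of 0 with ratios of 0.84 and 0.81, and Lce3c alone has both values below 0.

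Some members are shown by the 120 bases before their start site, to set the likeness over arrays beside likeness of sequence. They are the 3 genes with the shared pattern, Lce3c, and also Lce1a1 and Lce1d, whose orientations overlapped. The differences between orientations of the latter pair were 0.39 and 0.08. The letters are those of RefSeq on GRCm38.p6, 5′ to 3′ on the strand of the gene. Capitals mark a stretch of 13 bases shared letter for letter by the Lce1 promoters shown here, and in Lce1d also TATAAA.
Lce1e, chr3:92709075-92709194, minus strand: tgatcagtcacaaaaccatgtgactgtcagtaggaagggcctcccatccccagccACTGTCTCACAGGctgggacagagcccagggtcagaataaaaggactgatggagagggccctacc
Lce1a2, chr3:92670316-92670435, minus strand: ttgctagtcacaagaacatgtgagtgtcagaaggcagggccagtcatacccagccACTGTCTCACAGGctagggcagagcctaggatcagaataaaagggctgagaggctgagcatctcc
Lce1i, chr3:92778900-92779019, minus strand: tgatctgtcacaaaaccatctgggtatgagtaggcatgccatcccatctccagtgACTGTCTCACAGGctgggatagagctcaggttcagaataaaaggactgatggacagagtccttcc
Lce1a1, chr3:92648308-92648427, minus strand: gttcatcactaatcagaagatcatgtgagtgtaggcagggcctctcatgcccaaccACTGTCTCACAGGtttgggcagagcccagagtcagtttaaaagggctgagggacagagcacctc
Lce1d, chr3:92687211-92687330, minus strand: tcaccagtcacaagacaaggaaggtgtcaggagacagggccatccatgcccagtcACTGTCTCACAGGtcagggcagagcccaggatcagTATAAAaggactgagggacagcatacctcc
Lce3c, chr3:92944366-92944485, plus strand: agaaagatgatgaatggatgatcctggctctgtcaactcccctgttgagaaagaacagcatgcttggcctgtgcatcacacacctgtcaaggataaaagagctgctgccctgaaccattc
The stretch ACTGTCTCACAGG began at position -64 or -65 from the start in all 6 of Lce1a1, Lce1a2, Lce1b, Lce1d, Lce1e and Lce1i. Searched on both strands over the 250 bases before the start, it was in 7 of 32851 promoter windows of the mouse, the seventh being that of Lce1h. The stretch was picked because these windows share it, and outside the family it was in 0 windows. Lce1l and Lce3c do not hold these letters in this window, and Lce1f has no entry. Of the Lce1 genes not tested, Lce1c, Lce1g, Lce1j, Lce1k and Lce1m do not hold them either. The stretch was present both in genes whose ratio followed the orientation and in genes whose ratio did not. The word TATAAA, on either strand, was in the windows of 4 of 20 family promoters, and of the tested members in that of Lce1d, against 12.4% of all windows. The word TGANTCA was in 0 of 20, against 6.75% of all windows.

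Over the 250 bases before the start, the promoters of the 6 members with the shared stretch were 65.1% to 78.0% identical in pairs (15 pairs). Lce1l was 51.0% to 57.1% identical to these 6, and Lce3c was 51.9% to 57.7% identical to the other members. The most alike pair was Lce1e and Lce1i, at 78.0%, and Lce1a2 was 72.4% identical to Lce1e and 67.2% to Lce1i. Lce1a2 was however also 74.9% identical to Lce1d, whose ratios over arrays were little like its own (r = 0.16, 8 arrays).

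Over arrays, Lce1e, Lce1a2 and Lce1i were the members most alike, with Pearson r of 0.95 for Lce1a2 and Lce1e, 0.91 for Lce1e and Lce1i and 0.90 for Lce1a2 and Lce1i (8 arrays each). The arrays share the dyes, so part of this likeness is the difference between orientations given above. With the mean of each orientation subtracted, r was 0.80, 0.42 and 0.53 for the same pairs. Lce3c ran opposite to all 3, at -0.84 with Lce1e, -0.76 with Lce1a2 and -0.71 with Lce1i, and after subtraction these were -0.37, -0.17 and 0.29. Of the 36 pairs of members 26 had r above 0, and 25 after subtraction. Of the 8 pairs with Lce3c 1 had r above 0 (median -0.38), and 5 after subtraction (median 0.17). Lce1a1 and Lce1b were the least alike among the Lce1 genes, at -0.57 over 7 arrays.

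**Figure D3:**
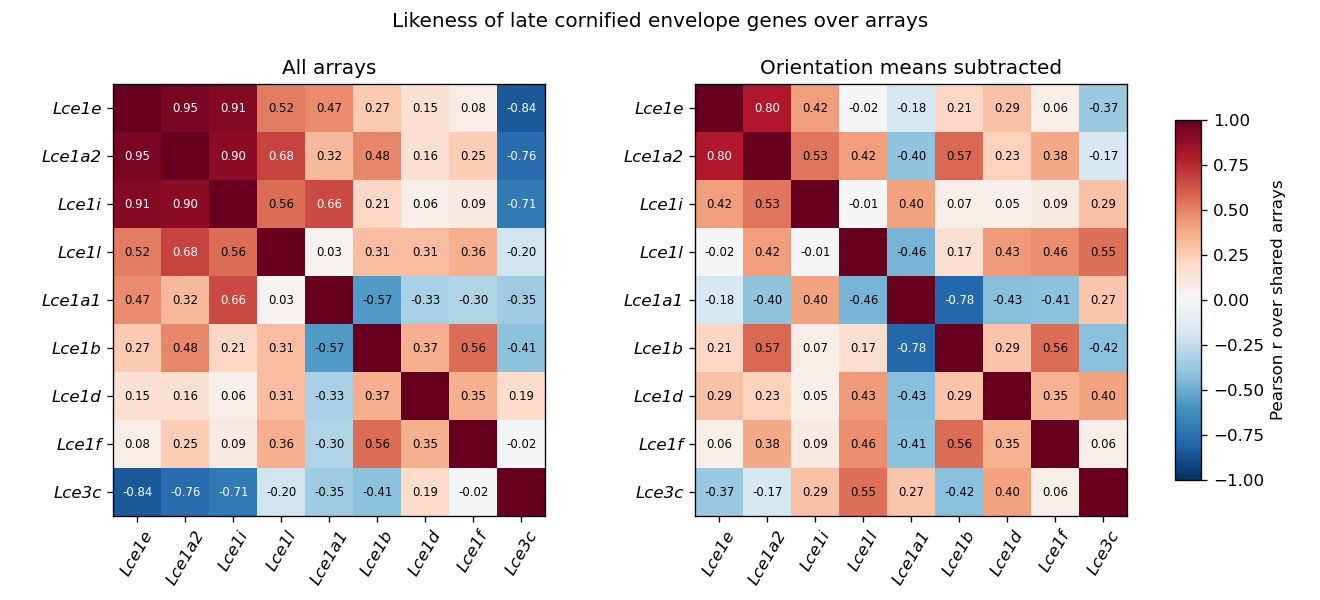
Pearson correlation of the log ratios of each pair of members over shared arrays (6 to 8), with all arrays on the left and after subtracting each gene's mean within each dye orientation on the right. Colour runs from -1 (blue) to 1 (red). The block of Lce1e, Lce1a2 and Lce1i at 0.90 to 0.95 falls to 0.42 to 0.80 on the right, and the values of Lce3c with these 3 move from between -0.84 and -0.71 to between -0.37 and 0.29.

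Named genes outside the family whose ratios ran most like those of a member were taken from genes sharing at least 7 arrays with it, 2970 for members on all 8 arrays. For Lce1e these were Fbn1 (r = 0.99), which encodes fibrillin of the dermal matrix, Acin1, Gnao1, Slc25a46 and Ccl28, from 0.98 to 0.99. For Lce1a2 they were Bcl2a1b, Birc3, Dtnb, Gnao1 and Cul7 (0.99 or higher), and for Lce1i Usp9x, Tmem39a, Stard3, Psme3 and Zic2 (0.96 to 0.98). These 14 genes, with Gnao1 in both of the former lists, have Cy5 minus Cy3 differences above 1, from 1.13 for Usp9x to 3.11 for Psme3, so the likeness includes the gap between orientations. Lce1a1 ran with Cdr2, Ahr, Irx5, Usp9x and Htr1f (0.91 to 0.98), and Lce3c with Spin1, Bysl, Ube2k, Gsto1 and Ncf4 (0.97 to 0.98). Here too the genes differed between orientations, by 0.78 to 1.73 for those like Lce1a1 and by -2.04 to -1.15 for those like Lce3c. Lce1d ran with Fam114a1, Lasp1, Pga5, Sri and Hc (0.94 to 0.96), and Lce1f with Foxc1, Cd63, Pclaf, Sectm1b and Pnpla8 (0.84 to 0.87). Lce1b ran with Cops2, Prkrip1, Oprl1, Il12rb1 and Tmem59, and Lce1l with Nubp2, Pold2, Inhbc, Il22 and Tfcp2l1. With 7 or 8 points and 2970 candidates or fewer down to 1772 such values are a description alone.

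Inside the run of Lce genes on the chromosome, 2310050C09Rik was the sole other gene tested. Its values were 1.99, 0.63, 1.27 and 1.16 with the mutant in Cy5 and 0.14, -0.82, -0.49 and 0.14 with it in Cy3. Like Lce1e it was thus higher on each Cy5 array than on any Cy3 array, as were 22.5% of probes with values on all 8 arrays. The split is therefore not particular to this run of genes. Its difference was 1.52 ± 0.40 (limma adjusted p = 0.0484), and its ratio of 0.50 did not pass (0.182). With any of arrays 1 to 7 left out, at most 1 of all probes passed above 0, so the call on its difference is not a firm one. The nearest tested genes outside the run were Smcp, a sperm mitochondrial protein gene, at -0.28, and S100a10, which encodes a partner of annexin A2, at 0.08. Their differences between orientations were -1.07 and -1.22, opposite to those of the Lce1 genes, and did not pass.

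Of 33 listed other genes of the complex 15 had a row and 9 were tested, 8 envelope genes and Smcp. Of the 8 envelope genes 5 had ratios below 0, with a median of -0.42 (-0.28 with Smcp, whose value that is), and 1 was lower past the threshold and none higher. Sprr1b, a small proline-rich cross-bridge protein of the envelope, was lower at -1.04 ± 0.26, below 0 on 7 of 7 arrays. Its call lay at the threshold (limma adjusted p = 0.04998) and was lost without any 1 of the 7 arrays (0.0646 to 0.192) and with named genes in place of probes (0.0601). Sprr3, of the same family, stood at -1.10 and the early envelope protein involucrin, Ivl, at -1.06 (adjusted p = 0.125 and 0.0624). Sprr3 was at -4.03 on array 2 and between -1.08 and 0.10 on the other arrays with a value. The orientations of Ivl did not overlap. Ivl stood at -1.80, -2.55 and -1.65 on arrays 2, 4 and 6, and at 0.51, 0.40 and -1.28 on arrays 3, 5 and 8. Loricrin, Lor, the main protein of the envelope, was chosen after its values were seen and stood at 0.33, above 0 on 8 of 8 arrays from 0.003 to 1.40 (adjusted p = 0.366). Of 3 S100 genes none passed, with S100a6 at 0.26, S100a10 at 0.08 and S100a3 at -0.02.

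Among 7 tested genes that cross-link, anchor or process the envelope none passed, with a median ratio of 0.09. The largest ratios were those of the desmosomal cadherin Dsc1 at 0.38, the transglutaminase Tgm3 at -0.36 and the filaggrin-processing caspase Casp14 at 0.33. Casp14 had the same split as Lce1e, with 3.03, 1.07, 1.63 and 1.60 on arrays 2, 4, 6 and 7 and -0.66, -1.03 and -1.84 on arrays 3, 5 and 8 (difference 3.01 ± 0.52, adjusted p = 0.0301, kept only without array 8 among fits that left out an array with a value). Of 7 barrier lipid genes 1 was lower, the fatty acid binding protein Fabp5 at -1.59 (adjusted p = 0.0197), with Sptlc2 at 0.29 and Elovl1 at -0.28. The Fabp5 call was lost without array 1, 4, 5 or 6. Krt1, a keratin of suprabasal cells, was higher at 1.30 (adjusted p = 0.0179) and above 0 on 7 of 7 arrays, a call lost without array 1 or 5. Its difference between orientations, at -0.79, had the opposite sign to that of Lce1e. Of 14 regulators of late differentiation none passed, with the vitamin D receptor Vdr at -0.97, the nuclear receptor Rora at 0.94 and the repressor Prdm1 at 0.92. Vdr was at -4.80 on array 2 and between -1.04 and -0.10 elsewhere. On array 8 Rora reached 2.44 and Prdm1 3.23, against at most 1.11 and 1.76 on the other arrays.

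**Figure D4:**
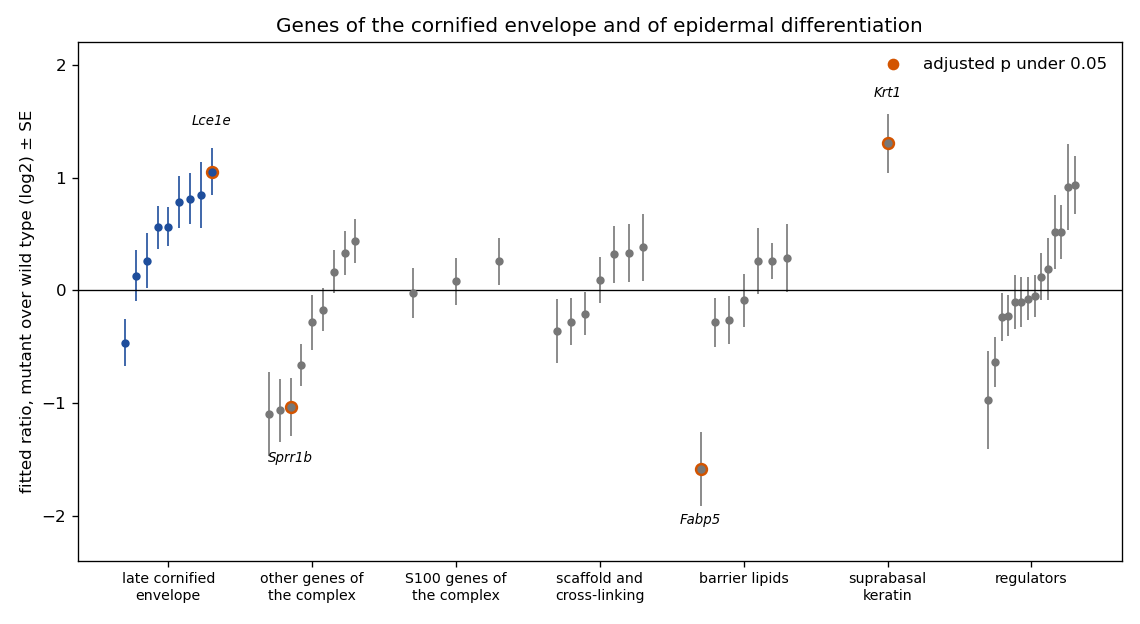
Fitted ratio of mutant over wild type (y axis, log2, ± SE) for the 9 members (blue) and the tested genes of 6 fixed lists (grey), each sorted by ratio along the x axis. Orange marks adjusted p under 0.05. Lce1e at 1.05 and Krt1 at 1.30 are marked above 0 and Sprr1b at -1.04 and Fabp5 at -1.59 below.

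Markers of other cells of whole skin were read beside the family. The 6 tested dermal fibroblast genes had a median ratio of 0.84, with 5 of 6 above 0 and Vim (1.17) and Fbn1 (0.75) higher past the threshold. The largest other ratio was that of the growth factor receptor Pdgfra, at 1.09, which did not pass. The Fbn1 call was kept in 1 of 8 fits without an array. Vim, the intermediate filament of mesenchymal cells, differed between orientations by -1.42, opposite in sign to Lce1e (limma adjusted p = 0.0472), a call lost without any of arrays 1 to 7 (up to 0.123) and with named genes (0.0609). The 4 adipocyte genes had a median of 0.38, with the secreted protease Cfd higher at 1.96, Car3 at -0.86 and Lep at 0.43. The 4 immune genes had a median of -0.08, with the complement gene C1qb lower at -1.37, Lyz2 at -0.74 and Tyrobp at 0.71. The single muscle gene tested, Tnnt3, stood at -1.23. Among basal keratinocyte markers Col17a1 was the sole gene tested, at 0.06 with a difference between orientations of 1.72 (limma adjusted p = 0.0371), a call lost without any of arrays 1 to 7 (up to 0.103). The part of cell makeup in the ratios of the Lce genes was not tested.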

How the data were processed

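The deposited table holds 1 log ratio per spot and array, taken as log2 values. Dye coupling and hybridization followed TIGR protocols, per the labels' protocols. For image analysis, normalization, the missing-value rule and the base of the logarithm, the method is not given in the sources used here. Of 23232 rows, 1235 control spots were left out and the 232 Gapdh spots averaged, giving 21766 probes, of which 6518 were named by RefSeq accession, 77 by synonym and 15171 not at all.

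Log ratios were fitted with limma 3.58.1 (R 4.3.3; lmFit, eBayes) as a mean and a dye term on all 11974 probes with values on at least 3 arrays of each orientation, and p-values were adjusted by Benjamini-Hochberg over all of them, with 0.05 as the threshold. The fit was also run on simulated data with changes of 3 in log2, no difference between orientations and no shared animals. Changes of the size of the Lce ratios were not simulated. Every Lce row is named. Of other lists, genes past the threshold and the 3 largest ratios are named, and for likeness the 5 highest correlations over at least 7 arrays. Members and lists were chosen with earlier results of these data known. The number of arrays limits the precision. Promoter letters come from RefSeq on GRCm38.p6, and no other coordinates are given.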

Additional observations from a re-analysis of the deposited data

Results flagged for a closer look

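Values of single arrays far from the others were looked for in 21 sets of 4 to 10 values, and 2 stood apart, where chance gives about 1 in 20, or 1.05 of 21. The median of the barrier lipid genes was 0.72 on array 2, and the nearest other array stood at 0.11. On array 2 values were present for 3 of the 7 genes, so this median is the value of Elovl1 alone. The median of the dermal fibroblast markers was 2.10 on array 8, and the nearest other stood at 0.68, with values for 6 of 6 genes on array 8. The values of the 9 Lce members themselves held none that stood apart in this way.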

How the results depend on the processing

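Lce1e was called higher as reported, with median centring, with at least 4 arrays, with named genes and in all 8 fits that left out an array. The number of members higher was 1 as reported, with median centring, with at least 4 arrays and with named genes, 2 with arrays set to equal spread, 3 with values on all arrays, read as Cy5 over Cy3 or with the mutant in Cy5 alone, and 4 with quantile normalization or array quality weights. It was 0 with no dye term, with the mutant in Cy3 alone and with arrays 4 to 8 alone, and 1 to 2 without 1 array, the latter, with Lce1f, without array 8. With the mutant in Cy3 alone the ratios turned for Lce1a2 (-0.21), Lce1e (-0.070), Lce1i (-0.37), Lce1l (-0.21) and Lce3c (0.26). By an exact two-sided sign-flip test over 8 arrays, unadjusted, Lce1e had p = 0.0781, Lce1a1 and Lce1d each 0.00781, the smallest that 8 arrays can give, and Lce1f 0.0156, while the other 5 members, 2 of them over 7 arrays, had 0.109 to 0.453.

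The difference between orientations was called above 0 for 3 members, for 2 with named genes, for 0 with at least 4 arrays or arrays 4 to 8 alone, and for 0 to 3 without 1 array. It was called below 0 for 0 members, for 1, Lce3c, with equal spread, quantile normalization, values on all arrays or array quality weights, and for 0 to 1 without 1 array. The small difference of Lce1b turned to -0.071 with equal spread, -0.13 with quantile normalization and -0.28 with array quality weights, and ran from -0.16 to 0.45 without 1 array. That of Lce1d was -0.013 with median centring and -0.28 to 0.64 without 1 array. That of Lce1f was -0.025 with median centring, -0.25 with equal spread, -0.37 with quantile normalization, -0.56 with array quality weights, -0.21 with arrays 4 to 8 alone and -0.20 to 0.39 without 1 array.

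Of all probes, 81 were higher, against 19 with no dye term, 186 with equal spread, 380 with quantile normalization, 33 with at least 4 arrays, 130 with values on all arrays, 25 with named genes, 527 with array quality weights, 533 read as Cy5 over Cy3, 0 with Cy3 alone, 417 with Cy5 alone, 3 with arrays 4 to 8 alone and 17 (without array 4) to 74 without 1 array, with 20, 29 and 38 without arrays 1, 2 and 7. Lower were 423, against 239 (no dye term), 757 (quantile), 257 (all arrays), 106 (named genes), 1029 (weights), 107 (Cy5 over Cy3), 0 (Cy3 alone), 61 (arrays 4 to 8) and 218 (without array 1) to 440 without 1 array, with 245, 272 and 280 without arrays 6, 5 and 7. A difference between orientations above 0 had 533 probes, against 298 (centring), 1197 (equal spread), 1309 (quantile), 0 (at least 4 arrays), 940 (all arrays), 62 (named genes), 1770 (weights), 0 (arrays 4 to 8) and 0 to 1461 without 1 array, the latter without array 8. One below 0 had 107, against 492, 883, 0, 437, 4, 1408 and 1 in the same order from equal spread on, and 0 to 949 without 1 array, the latter without array 8. These counts have different totals in 3 settings. The number tested was 11974 in the main fit, 19717 with at least 4 arrays, 5057 with values on all arrays and 3779 with named genes. The 81 higher probes were thus 0.676% and the 25 higher named genes 0.662% of those tested. Of called probes 83.9% were lower, 66.6% with quantile normalization, 66.4% with values on all arrays, 66.1% with weights, 45.4% with Cy5 alone and 16.7% read as Cy5 over Cy3. The causes were not tested. No paired analysis was possible because no label says which animal an array holds, and each ratio already pairs mutant and wild type RNA on 1 array.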
